A study of Mus musculus with 12 samples.

Results

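The water channels of the kidney and the receptor that controls the vasopressin-sensitive ones were followed in obstructed and unobstructed mouse kidneys. The genes were chosen by symbol: 9 aquaporins (Aqp1, Aqp2, Aqp3, Aqp4, Aqp5, Aqp6, Aqp7, Aqp8 and Aqp11) and Avpr2, 10 of the 23183 symbols measured in each of 12 RNA-seq libraries of kidney cortex. The libraries form 4 groups of 3. Wild-type (WT) and Acot12-/- C57BL/6N males, 6 to 7 weeks old, underwent unilateral ureteral obstruction (UUO), a ligation of the ureter on 1 side only, and cortex was taken on day 7 from the obstructed kidney (UUO) and from the untreated contralateral kidney (CL), which served as the control. The Acot12-/- allele is a global, nuclease-induced mutation carried in every cell from the germline onwards, so no cell type is spared, and all 4 groups come from operated mice, so a CL kidney is not the kidney of an unoperated mouse. The study asked how loss of the acyl-CoA thioesterase ACOT12 alters kidneys that scar after obstruction, and the comparisons here ask what UUO and genotype did to the transcripts of water transport.

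Aquaporins are membrane channels for water, and some also pass glycerol or other small solutes. In the proximal tubule AQP1 lies in both faces of the cell and carries most of the water that is reabsorbed there without hormonal control. In the principal cell of the collecting duct the pituitary hormone vasopressin binds the V2 receptor, encoded by Avpr2, on the basolateral side, which raises cyclic AMP. Protein kinase A then moves AQP2 to the apical membrane and, over a longer time, raises transcription of Aqp2, and water leaves the cell on its basolateral side through AQP3 and AQP4. Obstruction of the ureter is known for a loss of the ability to concentrate urine.

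The members fall into 3 roles. Aqp1, Aqp7, Aqp8 and Aqp11 are channels of the proximal tubule, Aqp2, Aqp3, Aqp4 and Avpr2 belong to the principal cell, and Aqp6 is a channel of acid-secreting intercalated cells, listed together with Aqp5. Positions are from GENCODE vM21 on GRCm38, the assembly that mm10 also names. Aqp2 (chr15:99579055-99584547), Aqp5 (chr15:99590782-99594829) and Aqp6 (chr15:99601400-99605477) lie next to each other on the plus strand, and Aqp7 (chr4:41033074-41048139) and Aqp3 (chr4:41092722-41098183) are close on the minus strand. Aqp1 (chr6:55336432-55348555, plus), Aqp11 (chr7:97724006-97738289, minus), Aqp8 (chr7:123462291-123468004, plus) and Avpr2 (chrX:73892102-73895502, plus) stand alone. All 10 are annotated as protein coding.

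The aquaporin fold holds a short loop with the residues asparagine, proline and alanine, which usually occurs in 2 places and lines the pore. It is shown here as DNA because most of these channels hold it in 2 places, whereas Aqp11 and Aqp7 do not. The coding sequences of the aquaporins other than Aqp4 were searched in frame for AAC or AAT followed by CCN and GCN, which covers all codons of those residues. Aqp1, Aqp2, Aqp3, Aqp5, Aqp6 and Aqp8 held 2 matches each, Aqp11 held 1 and Aqp7 held 0, which says only that these letters are not in the Aqp7 coding sequence. In the lines below, written 5′ to 3′ on the coding strand, capitals mark the matched codons and 12 coding bases stand on each side.
Aqp1 first match (chr6:55336704-55336736, plus): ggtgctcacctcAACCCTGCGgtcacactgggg
Aqp1 second match (chr6:55345825-55345857, plus): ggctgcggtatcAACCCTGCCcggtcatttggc
Aqp2 first match (chr15:99579342-99579374, plus): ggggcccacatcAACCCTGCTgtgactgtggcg
Aqp2 second match (chr15:99583112-99583144, plus): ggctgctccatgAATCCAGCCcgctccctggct
Aqp6 first match (chr15:99601630-99601662, plus): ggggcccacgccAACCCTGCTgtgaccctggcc
Aqp6 second match (chr15:99602981-99603013, plus): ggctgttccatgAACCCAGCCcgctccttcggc
Aqp11 only match (chr7:97729041-97729073, minus): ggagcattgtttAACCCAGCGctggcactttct
Over whole coding sequences, the closest relatives were Aqp2 and Aqp5 with 70.1% identical bases, followed by Aqp5 and Aqp6 with 67.3% and Aqp2 and Aqp6 with 67.1%, the 3 neighbours on chromosome 15. Aqp1 and Aqp2 shared 64.5%, and Aqp11 with Aqp6 shared the least, 57.2%.

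The 250 bases before the start site in RefSeq (GRCm38.p6) are shown for Aqp2 and Aqp1, the pair of channels set against each other below. They were searched on both strands for TGACGTC (7 of the 8 letters of the cyclic AMP response element), GATAAG and AGATAA (which GATA factors bind, and which overlap each other) and TGANTCA (AP-1). Upstream of Aqp2, capitals mark TGACGTC on the minus strand from base -213 to -207 and the overlapping GATAAG and AGATAA on the minus strand from -203 to -197. Aqp1 held none of the motifs.
Aqp2 upstream (chr15:99578806-99579055, plus): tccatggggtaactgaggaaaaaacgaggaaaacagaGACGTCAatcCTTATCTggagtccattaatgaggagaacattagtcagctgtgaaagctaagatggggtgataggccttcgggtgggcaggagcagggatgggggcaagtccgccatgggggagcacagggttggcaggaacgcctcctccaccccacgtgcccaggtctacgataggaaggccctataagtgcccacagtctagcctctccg
Aqp1 upstream (chr6:55336049-55336298, plus): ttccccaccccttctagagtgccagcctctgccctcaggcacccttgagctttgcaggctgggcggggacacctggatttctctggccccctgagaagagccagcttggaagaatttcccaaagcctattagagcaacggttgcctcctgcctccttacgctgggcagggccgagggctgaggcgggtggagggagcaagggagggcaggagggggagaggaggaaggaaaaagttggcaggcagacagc
Of 32851 mouse start sites, 2.78% held TGACGTC in the same window, 6.55% held GATAAG, 9.99% AGATAA and 6.75% TGANTCA. Among the other members, the overlapping GATAAG and AGATAA also stood before 1 of the start sites of Aqp7, from -132 to -126 on the plus strand, and Aqp3, Aqp5, Aqp6, Aqp8, Aqp11 and Avpr2 held none.

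Levels are FPKM, fragments scaled to transcript length and to a library size, so genes can be compared per length. That size, recovered from the steps between low values, was 12410000 to 16330000 fragments in CL libraries and 18560000 to 23010000 in UUO libraries. It equals sequencing depth only if the authors' normalization did nothing further to the values, which was not tested. Summed FPKM were 799670 to 977981 in CL and 491078 to 686425 in UUO libraries, the gap that making library totals equal removes. In the Acot12-/- libraries Acot12 itself was not at 0 but lower than in WT, at 6.80 to 9.14 against 52.7 to 78.1 FPKM in CL (log2 fold change -2.88, SE 0.28, adjusted p = 0.000969) and at 1.80 to 3.86 against 9.98 to 21.2 in UUO (-2.07, SE 0.28, adjusted p = 0.0459), and WT UUO was itself below WT CL. The 16 proximal tubule markers summed to 5858 to 11299 FPKM in CL libraries, while the 8 skeletal muscle markers summed to 1.08 to 3.51 FPKM in all 12 libraries. These sums do not separate cortex from whole kidney, and the share of medulla or pelvis in each library was not tested. The labels give libraries a number but do not say that a number marks a mouse. CL and UUO libraries of a genotype with the same number deviated together in all 6 pairs (r 0.134 to 0.364 after removal of group means), so they are called pairs here. Libraries with unlike numbers could correlate too, at 0.139 for WT CL library 2 and WT UUO library 1. Across genotypes, r reached 0.451 for WT UUO library 1 and Acot12-/- UUO library 2, so a shared mouse is not shown. Nothing in the labels says how the kidneys of a group were collected, so p-values measure the spread between these libraries.

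In WT CL cortex Aqp1 was the most abundant member (257 ± 58.8 FPKM, mean ± SD, n = 3), followed by Aqp2 (135 ± 13.2), Aqp3 (54.0 ± 6.71) and Aqp11 (30.9 ± 4.90), and none of these 4 overlapped its neighbour in that order. Aqp6 (16.8 ± 2.79), Aqp7 (14.4 ± 2.64), Aqp4 (13.3 ± 8.44) and Avpr2 (11.8 ± 1.41) followed with overlapping values, and Aqp8 (0.859 ± 0.519) and Aqp5 (0.182 ± 0.269) were last and overlapped too. In WT UUO Aqp1 (90.4 ± 6.60), Aqp2 (39.0 ± 23.6) and Aqp3 (15.8 ± 1.25) still had the highest means, in that order. Behind them Aqp6 (15.2 ± 7.90) and Aqp7 (10.7 ± 0.470) now stood above Aqp11 (5.04 ± 1.25), followed by Avpr2 (5.02 ± 4.07) and by Aqp4 at 1.62 ± 0.366. In Acot12-/- UUO, Aqp2 (90.5 ± 64.6) and Aqp1 (105 ± 28.1) overlapped.

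**Figure D1:**
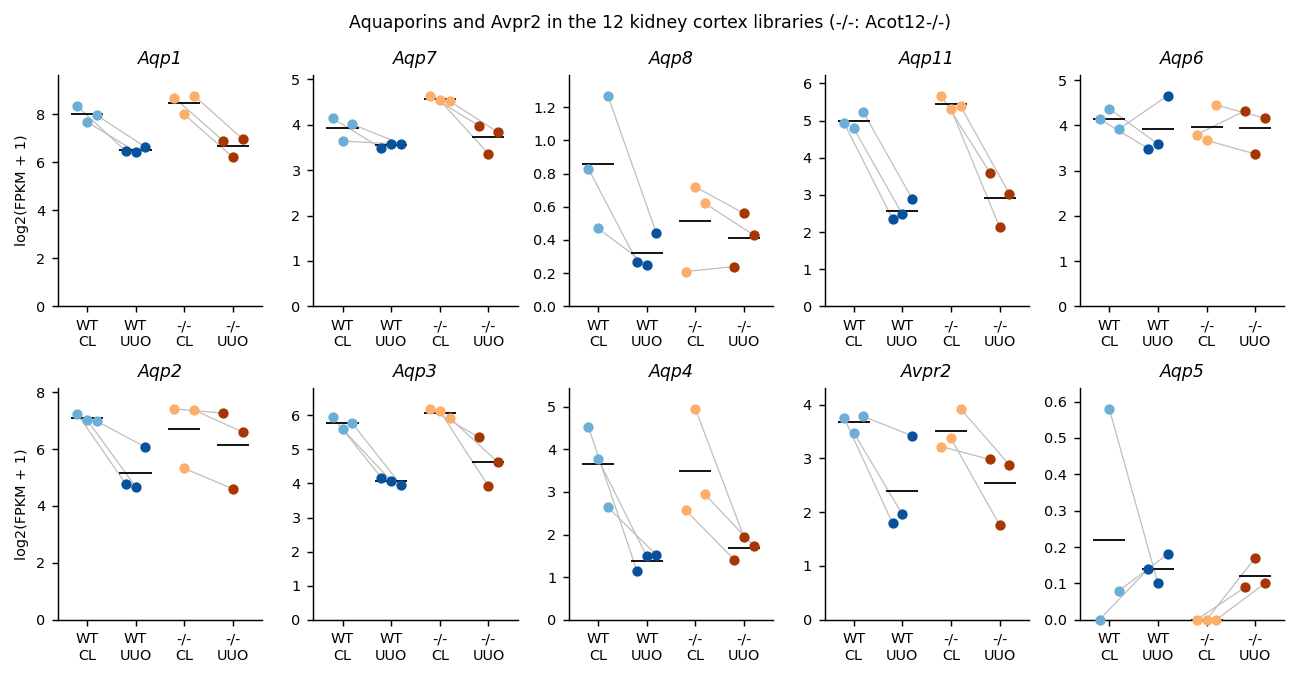
Level of each member as log2(FPKM + 1) in the 4 groups, 1 point per library, with a bar at the group mean and grey lines joining CL and UUO libraries of the same number; each panel has its own scale from 0. Aqp1, Aqp2, Aqp3, Aqp4, Aqp7, Aqp11 and Avpr2 fell along every line. Aqp2 spread widely in 3 of the groups, and Aqp6 moved in both directions.

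With UUO, Aqp1, Aqp3, Aqp4 and Aqp11 fell in both genotypes, Aqp2 and Avpr2 fell in WT, Aqp7 fell in Acot12-/-, and Aqp6 was called in neither. In WT, 8 of the 10 members passed the filter on low values (at least 1 FPKM in at least 3 libraries) and 6 of these 8 were called lower at an adjusted p under 0.05, namely Aqp1, Aqp2, Aqp3, Aqp4, Aqp11 and Avpr2, against 23.9% called lower (47.5% in either direction) among the 13243 genes tested. In Acot12-/- kidneys 5 of 8 were called lower, Aqp1, Aqp3, Aqp4, Aqp7 and Aqp11, against 27.2% called lower (53.7% in either direction). No member was called higher in either genotype. The median log2 fold change of the 8 was -1.59 in WT and -1.20 in Acot12-/-, beside 0.01 and -0.01 over all genes tested. WT CL and WT UUO libraries did not overlap for 7 of the 8 members tested, where 71.3% of genes tested did not, and Acot12-/- CL and UUO did not overlap for 6 of 8, where 55.4% did not. Making library totals equal moved the median of all genes to 0.62 in WT and 0.46 in Acot12-/-, and 4 members were then called lower in each genotype, Aqp1, Aqp3, Aqp4 and Aqp11.

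**Figure D2:**
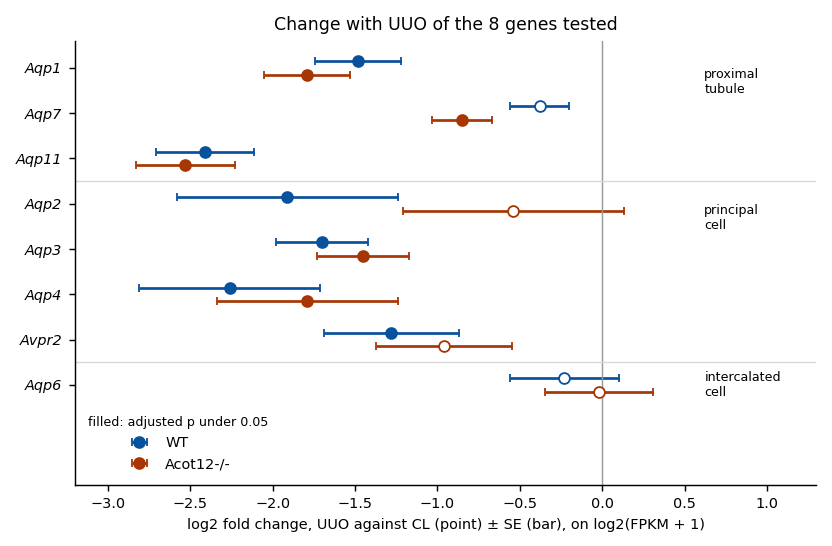
Log2 fold change of UUO against CL with its standard error for the 8 members tested, grouped by role, in WT (blue) and Acot12-/- (brown); filled points have an adjusted p under 0.05. The points lie to the left of 0 in both genotypes, furthest for Aqp11 at -2.41 and -2.53, while both Aqp6 points and the Acot12-/- point of Aqp2 have bars that cross 0; with library totals made equal, both Aqp6 points and the WT point of Aqp7 lie to the right of 0.

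Among the proximal channels, Aqp1, which encodes the constitutive water channel of the proximal tubule and thin descending limb, read 320, 204 and 247 FPKM in WT CL libraries 1 to 3 and 87.1, 86.1 and 98.0 in WT UUO. In the Acot12-/- libraries CL gave 408, 254 and 435 FPKM and UUO gave 118, 72.9 and 124. All UUO libraries lay below all CL libraries of their genotype, and library 2 of Acot12-/- was the lowest of its group on both sides. Aqp1 fell by 1.48 on the log2 scale in WT (SE 0.26, adjusted p = 0.00068) and by 1.79 in Acot12-/- (SE 0.26, adjusted p = 0.000123). With library totals made equal the WT value was -0.75 (adjusted p = 0.0167). Pair by pair, the UUO kidney held 27.2%, 42.2% and 39.6% of the CL level in WT and 28.9%, 28.7% and 28.6% in Acot12-/-.

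Aqp11, an unusual aquaporin of the endoplasmic reticulum whose loss is known to give proximal tubule vacuoles and cysts in mice, read 29.6, 26.7 and 36.3 FPKM in WT CL and 4.10, 4.57 and 6.46 in WT UUO. For Acot12-/- the CL libraries gave 49.8, 38.6 and 40.6 FPKM and the UUO libraries 11.1, 3.38 and 7.15. No UUO library came near a CL library. Aqp11 fell, with a log2 fold change of -2.41 in WT (SE 0.30, adjusted p = 7.43e-05) and of -2.53 in Acot12-/- (SE 0.30, adjusted p = 3.08e-05), and only 1.2% and 1.0% of the genes tested had a lower fold change. It was called in both genotypes under all alternatives tried, with a WT value of -1.75 when library totals were made equal.

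Aqp7, an aquaglyceroporin of the straight proximal tubule that takes back glycerol, had smaller fold changes. It read 16.6, 11.5 and 15.1 FPKM in WT CL and 10.1, 10.9 and 10.9 in WT UUO, while Acot12-/- libraries gave 24.0, 22.3 and 21.9 FPKM for CL against 14.7, 9.29 and 13.2 for UUO. The groups did not overlap in either genotype, and the Acot12-/- CL libraries were above all others. The log2 fold change in WT was -0.38 (SE 0.18, adjusted p = 0.0915), which did not pass the threshold, although it did without WT CL library 2 (-0.53, adjusted p = 0.0392) and with the WT libraries fitted alone (adjusted p = 0.0368). With library totals made equal its direction in WT turned (0.30, adjusted p = 0.225). In Acot12-/- Aqp7 fell by 0.85 (SE 0.18, adjusted p = 0.00156), a call lost when library totals were made equal (-0.33, adjusted p = 0.187), and the interaction of genotype and UUO was -0.46 (SE 0.25, adjusted p = 0.583).

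Aqp8, known mainly from liver, gut and testis, was barely measured. It ranged from 0.16 to 1.42 FPKM over the 12 libraries, which corresponds to 3 to 25 fragments per library, and it did not pass the filter. WT CL read 0.775, 0.388 and 1.42 FPKM and WT UUO 0.209, 0.189 and 0.355, without overlap, whereas Acot12-/- CL (0.16, 0.649 and 0.542) and UUO (0.179, 0.476 and 0.344) overlapped. Without the filter, Aqp8 had a log2 fold change of -0.54 in WT (adjusted p = 0.0471) and of -0.11 in Acot12-/- (adjusted p = 0.687).

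The proximal tubule as a whole moved in the same direction. Of 16 proximal tubule markers without aquaporins, 15 were lower in WT UUO and 16 in Acot12-/- UUO, with medians of -2.47 and -2.67. The organic anion transporter Slc22a8 fell (log2 fold change -3.03 in WT and -3.88 in Acot12-/-), as did the amino acid transporter subunit Slc7a13 (-4.42 and -3.79) and the transporter Slc22a7 (-3.95 and -3.39). The log2 fold changes of Aqp1 and Aqp7 were closer to 0 than these medians in both genotypes, and those of Aqp11 were -2.41 and -2.53 beside them. In bulk cortex, fewer cells of a type and less RNA per cell cannot be told apart, here and in every result on UUO that follows. Injury, leukocyte and fibroblast transcripts moved the other way: all 8 injured tubule markers were higher in both genotypes, as were 8 and 9 of 9 leukocyte markers and 5 and 8 of 8 fibroblast markers. The summed leukocyte markers were 134 to 156 FPKM in WT CL against 570 to 681 in WT UUO, and for Acot12-/- the CL range was 49.9 to 103 and the UUO range 613 to 777. None of these markers was at 0 throughout a group, and their part in the fall of the aquaporins was not tested.

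In the collecting duct, Aqp2, the vasopressin-regulated apical channel, was steady in WT CL and spread widely in the other groups. It read 150, 129 and 125 FPKM in WT CL and 26.2, 24.6 and 66.2 in WT UUO, without overlap. Acot12-/- CL libraries gave 169, 38.9 and 164 FPKM and their UUO counterparts 152, 23.3 and 96.0, with overlap. Library 2 of Acot12-/- was the lowest of its group on both sides, and WT UUO library 3 was above the other WT UUO libraries. Aqp2 fell by 1.91 in WT (SE 0.67, adjusted p = 0.0344), and in Acot12-/- the log2 fold change was -0.54 (SE 0.67, adjusted p = 0.522). Pair by pair, UUO held 17.5%, 19.0% and 52.8% of the CL level in WT and 90.3%, 60.0% and 58.4% in Acot12-/-, so Aqp2 was lower in UUO in 6 of 6 pairs. The interaction of genotype and UUO, 1.37 (SE 0.95), had an adjusted p of 0.731, so the genotypes were not shown to differ. Single libraries moved the Acot12-/- value, which was -1.23 without Acot12-/- CL library 2 (adjusted p = 0.114), -1.10 without Acot12-/- UUO library 1 (adjusted p = 0.215) and 0.23 without Acot12-/- UUO library 2 (adjusted p = 0.774), and it was 0.00 with library totals made equal. The interaction ran from 0.68 without Acot12-/- CL library 2 to 2.14 without Acot12-/- UUO library 2. The call in WT was lost without any of the 3 WT CL libraries (adjusted p = 0.0884, 0.0684 and 0.0707), without WT UUO library 1 or 2 (0.105 and 0.11), without the filter on low values (0.0602) and with library totals made equal (-1.19, adjusted p = 0.0906). With pairs as a block the adjusted p was 0.00114 in WT and 0.148 in Acot12-/-. With the compared groups fitted alone it was 0.00227 in WT (SE 0.35) and 0.6 in Acot12-/- (SE 0.75).

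Aqp3, the basolateral channel for water and glycerol in the principal cell, was called lower in both genotypes. It read 60.9, 47.5 and 53.6 FPKM in WT CL and 17.0, 16.0 and 14.5 in WT UUO, while the Acot12-/- values were 72.0, 68.8 and 59.8 FPKM for CL against 40.1, 14.1 and 23.6 for UUO. Neither genotype showed an overlap, and Acot12-/- UUO library 1 was the highest UUO library. Aqp3 fell by 1.70 in WT (SE 0.28, adjusted p = 0.000406) and by 1.45 in Acot12-/- (SE 0.28, adjusted p = 0.000889), and both calls held under all alternatives tried, with a WT value of -1.0 when library totals were made equal.

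Aqp4, the other basolateral channel, which also lies in straight proximal tubules of mice, varied more in CL kidneys than in UUO kidneys. It read 22.1, 12.7 and 5.23 FPKM in WT CL and 4.92, 29.9 and 6.68 in Acot12-/- CL. The UUO values were 1.20, 1.81 and 1.86 FPKM for WT and 1.66, 2.83 and 2.33 for Acot12-/-. All 6 UUO libraries were below all 6 CL libraries, and Acot12-/- CL library 2, which was low for Aqp2, was the highest for Aqp4. Aqp4 fell by 2.26 in WT (SE 0.55, adjusted p = 0.00541) and by 1.79 in Acot12-/- (SE 0.55, adjusted p = 0.0162). The second call was lost without Acot12-/- UUO library 1 (adjusted p = 0.0517), and without Acot12-/- CL library 2, the highest of all, the value was -1.06 (adjusted p = 0.045).

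Avpr2, the vasopressin V2 receptor, read 12.6, 10.2 and 12.7 FPKM in WT CL and 2.45, 2.89 and 9.71 in WT UUO. The Acot12-/- values were 8.33, 9.35 and 14.1 FPKM for CL and 6.90, 2.38 and 6.38 for UUO. CL and UUO did not overlap in either genotype, but WT UUO library 3 almost reached the CL range, as it was also the highest WT UUO library for Aqp2. Avpr2 fell by 1.28 in WT (SE 0.41, adjusted p = 0.0225), a call that was lost without WT CL library 1 (adjusted p = 0.063) or 3 (0.0635) and without WT UUO library 1 (0.0984) or 2 (0.0883), and with library totals made equal (-0.67, adjusted p = 0.134). In Acot12-/- the log2 fold change was -0.96 (SE 0.41, adjusted p = 0.0663), and with pairs as a block it passed (adjusted p = 0.0374), as it did without WT UUO library 3 (0.0185). The ratio of Aqp2 to Avpr2 spanned 9.88 to 12.7 in WT CL and 6.82 to 10.7 in WT UUO, and among Acot12-/- libraries it spanned 4.15 to 20.2 for CL and 9.79 to 22.1 for UUO.

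Aqp6, an intracellular channel of acid-secreting intercalated cells that passes anions, was called in neither genotype. It read 16.6, 19.7 and 14.2 FPKM in WT CL and 10.2, 11.1 and 24.3 in WT UUO, and the Acot12-/- values were 12.9, 11.8 and 20.9 for CL and 19.1, 9.35 and 16.8 for UUO. The groups overlapped, and the highest value of all was again WT UUO library 3. The log2 fold changes were -0.23 in WT (SE 0.33, adjusted p = 0.595) and -0.02 in Acot12-/- (SE 0.33, adjusted p = 0.962). Aqp5, a channel of glands and lung also described in intercalated cells, was at 0 to 0.491 FPKM, at most 8 fragments in a library, and was not tested. Its highest value was in WT CL library 2, and all 3 Acot12-/- CL libraries were at 0, which allows up to 3 fragments each by counting error alone, as many as the 2 to 3 fragments found in each Acot12-/- UUO library.

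WT UUO library 3 and the second Acot12-/- pair, in which several members stood apart, also differed in other cell types. WT UUO library 3 had the highest summed proximal tubule markers of its group (2028 FPKM, against 1008 and 1222) and the lowest summed urothelium markers (66.1 FPKM, against 119 and 181). In the Acot12-/- groups, library 2 had the lowest proximal tubule sum on both sides, 7788 against 9403 and 11299 in CL and 765 against 2224 and 2542 in UUO. Urothelium sums were 1.64 to 39.5 FPKM in CL and 66.1 to 181 in UUO libraries, with library 2 the highest of each group. All 8 urothelium markers were called higher in Acot12-/- UUO and 3 of 8 in WT UUO, and 1 of the 8, Krt20, is also counted among the injured tubule markers. The part of these markers in the levels of Aqp2, Avpr2 and Aqp6 was not tested.

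Proximal and collecting duct water channels were then set against each other. As a share of the summed FPKM of the 9 aquaporins, the collecting duct channels Aqp2, Aqp3 and Aqp4 made up 37.0% to 41.9% in WT CL and 27.3% to 37.1% in WT UUO. Among Acot12-/- libraries they made up 29.6% to 33.2% for CL and 29.6% to 54.3% for UUO. The sum itself was 617, 452 and 499 FPKM in WT CL and 156, 155 and 223 in WT UUO. The Acot12-/- sums were 741, 465 and 750 FPKM for CL and 357, 136 and 284 for UUO. The UUO sums were below all CL sums of both genotypes.

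**Figure D3:**
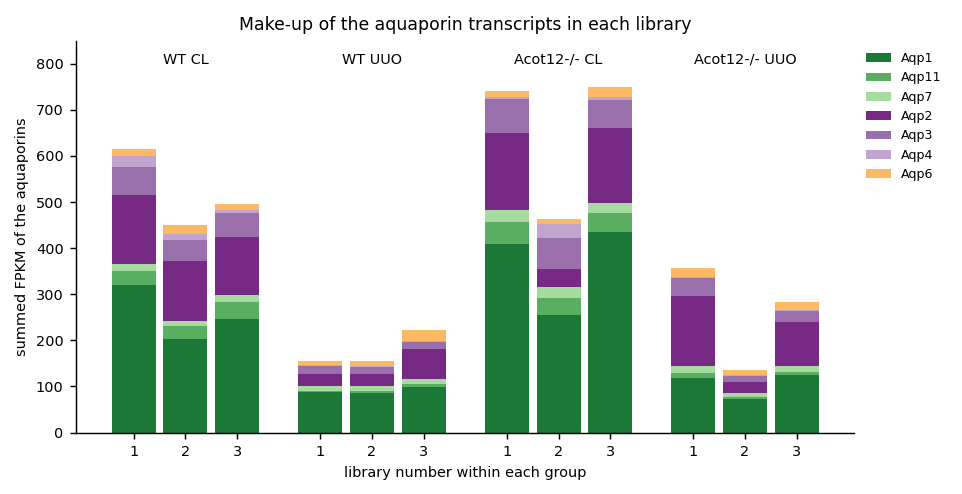
Summed FPKM of the aquaporins in each library, stacked by gene, with proximal channels in green, collecting duct channels in purple and Aqp6 in orange; Aqp5 and Aqp8 are too low to be seen and are left out. The bars drop from 452 to 750 FPKM in CL to 136 to 357 in UUO, and the purple share is widest in Acot12-/- UUO library 1.

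As a percentage of Aqp1, Aqp2 stood at 46.8%, 63.4% and 50.7% in WT CL and at 30.1%, 28.5% and 67.6% in WT UUO. The Acot12-/- percentages were 41.3%, 15.3% and 37.8% for CL and 129.2%, 32.0% and 77.1% for UUO. It was thus lower in UUO in 2 of 3 WT pairs and higher in UUO in 3 of 3 Acot12-/- pairs. Pair by pair, the log2 ratio of Aqp2 to Aqp1 in UUO minus that in CL was -0.61, -1.11 and 0.42 in WT and 1.64, 1.07 and 1.03 in Acot12-/-. The mean log2 ratio of Aqp2 to Aqp1 was 0.41 higher in UUO than in CL over both genotypes (exact permutation test within genotypes, two-sided p = 0.42, 400 arrangements). The difference of UUO against CL was -0.43 in WT (exact permutation p = 0.4) and 1.25 in Acot12-/- (exact permutation p = 0.3), where 3 against 3 libraries cannot give less than 0.1. Exchanging CL and UUO within pairs gave an exact permutation p of 0.5 in WT and 0.25 in Acot12-/-, the smallest that 3 pairs allow, so this design could not pass the threshold for a shift within a genotype, and whether the shift differed between genotypes was not tested. Over both genotypes, where the directions were opposite, the mean shift was not larger than the spread between libraries. By counts, 2 of 3 tested proximal members and 4 of 4 principal cell members were called lower in WT, where 23.9% of genes tested were, and 3 of 3 and 2 of 4 in Acot12-/-, where 27.2% were.

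**Figure D4:**
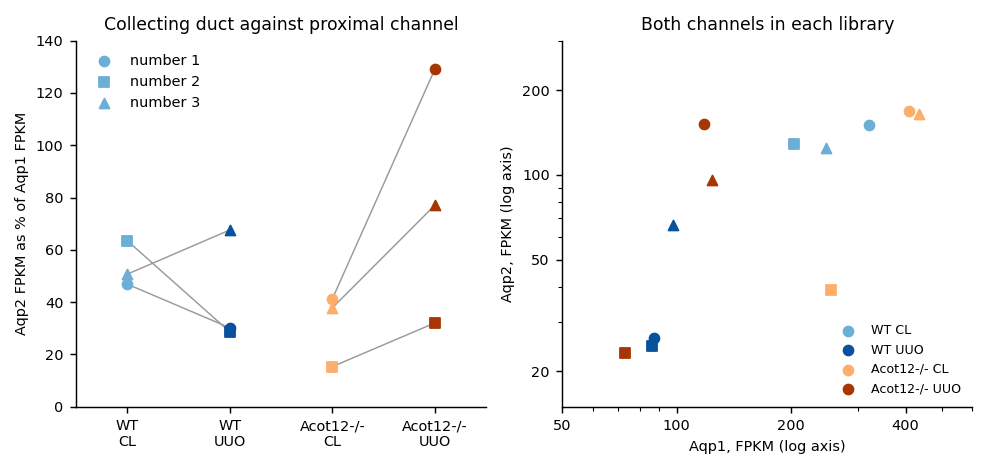
Left, Aqp2 as a percentage of Aqp1 (both FPKM) in each library, with lines joining CL and UUO libraries of the same number. Right, Aqp2 against Aqp1 on log axes, with the symbol giving the library number; Acot12-/- UUO libraries 1 and 3 and WT UUO library 3 lie above the other UUO libraries, and Acot12-/- CL library 2 lies below the other CL libraries.

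Markers of the principal cell other than the members changed in both directions with UUO. Of 13 markers, 4 were lower and 2 higher in WT UUO (median log2 fold change -0.39) and 2 were lower and 4 higher in Acot12-/- UUO (median -0.13), beside medians of -1.81 and -1.21 for the 4 principal cell members. Among all genes tested, 47.5% were called in WT (23.9% lower) and 53.7% in Acot12-/- (27.2% lower). The potassium channel subunit Kcne1 fell in both (-1.05 and -1.10), and the sodium pump regulator Fxyd4 fell in WT (-0.81, adjusted p = 0.0408), with -0.18 in Acot12-/- (adjusted p = 0.643). Apela fell in WT (-1.25, adjusted p = 0.0345), with -0.42 in Acot12-/- (adjusted p = 0.441). The keratin Krt18 rose by 2.65 and 3.08, and keratins are also raised in injured tubule cells. Npnt rose in WT (0.58, adjusted p = 0.0115), with 0.04 in Acot12-/- (adjusted p = 0.837). The summed principal cell markers were 396 to 619 FPKM in WT CL and 474 to 583 in WT UUO. For Acot12-/- they went from 359 to 532 (CL) to 548 to 650 (UUO). Krt18 alone gave 13.1 to 41.3 FPKM of the WT CL sums and 127 to 152 of the WT UUO sums. For the mutant it gave 14.8 to 24.1 FPKM of the CL sums and 136 to 206 of the UUO sums. The mutant sums therefore do not show a rise of the list as a whole, and the WT sums do not show that the list held steady. No test set these markers against the members.

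Intercalated cell markers fell while Aqp6 did not pass the test. Of 13, 9 were lower and 1 higher in WT (median -1.34) and 8 were lower and 2 higher in Acot12-/- (median -1.32). The proton pump subunit Atp6v1g3 (-2.42 and -1.78), the anion exchanger Slc4a1 (-2.34 and -1.76) and the ammonia transporter Rhbg (-1.88 and -1.82) fell, whereas the receptor Kit rose (0.77 and 0.68). Slc4a1 is also a red cell gene. Of 9 markers of the thick limb and distal convoluted tubule, 7 were lower in each genotype, with medians of -1.74 and -1.78, including the epidermal growth factor precursor Egf (-4.85 and -4.40).

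**Figure D5:**
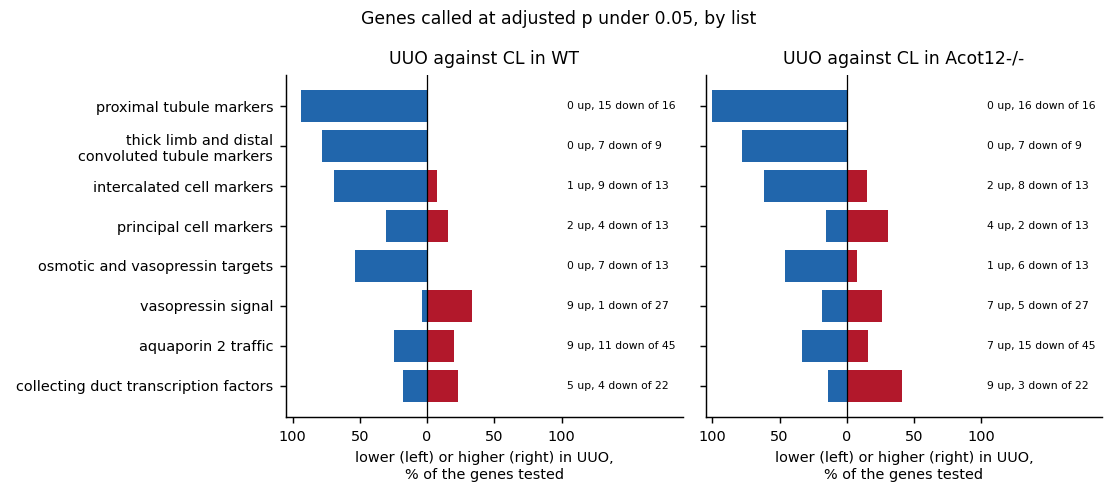
Share of the tested genes of each list called lower (blue, left) and higher (red, right) in UUO at an adjusted p under 0.05, in WT (left panel) and Acot12-/- (right panel), with the counts printed beside the bars. Markers of the proximal tubule, thick limb and intercalated cell and the osmotic and vasopressin targets lean to the left in both panels, whereas the vasopressin signal list leans to the right in WT. Over all genes tested, 23.9% were called lower in WT and 27.2% in Acot12-/-.

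Upstream of Aqp2, the vasopressin signal list holds the hormone, its other receptors, adenylyl cyclases, protein kinase A subunits, kinase anchors, phosphodiesterases and arrestins. Of 32 genes, 27 were tested, and 9 were higher and 1 lower in WT UUO (median 0.10), and 7 were higher and 5 lower in Acot12-/- UUO (median 0.15). Beside them, 47.5% of all genes tested were called in WT (23.9% lower) and 53.7% in Acot12-/- (27.2% lower). The anchor Akap12 rose by 1.93 and 2.58, the adenylyl cyclase Adcy7 by 1.53 and 1.80 and the arrestin Arrb2, which takes receptors out of service, by 1.25 and 1.93. Adcy7 and Arrb2 are well known in leukocytes, whose markers rose beside them, and their cell of origin was not tested. The phosphodiesterase Pde4d, which breaks down cyclic AMP, fell (-0.33 and -0.83). Adcy6, the cyclase that carries most of the vasopressin response in the collecting duct, named here after its values were seen, rose by 0.50 (adjusted p = 0.044) and 0.63 (adjusted p = 0.0139).

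The 45 genes of aquaporin 2 traffic, which dock, recycle or break down vesicles that carry the channel, went both ways: 9 were higher and 11 lower in WT and 7 were higher and 15 lower in Acot12-/-, with medians of -0.02 and -0.21. Over all genes tested, 47.5% were called in WT (23.9% lower) and 53.7% in Acot12-/- (27.2% lower), so these counts do not set the list apart. The annexin Anxa2 rose by 2.54 and 3.21, the actin linker Msn by 1.85 and 1.47 and the ubiquitin ligase Nedd4 by 0.98 and 0.61. The retromer subunit Vps35, which recycles cargo from endosomes, fell (-1.18 and -1.48), as did the dynein light chain Dynll2 (-1.08 and -1.05). The vesicle fusion protein Vamp8 fell in WT (-0.97), with -0.55 in Acot12-/- (adjusted p = 0.0864).

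Of 22 transcription factors of the collecting duct and distal nephron, 5 were higher and 4 lower in WT and 9 were higher and 3 lower in Acot12-/-, with a median of 0.25 in both. The shares called in either direction over all genes tested were 47.5% in WT and 53.7% in Acot12-/-, so the number called does not set this list apart. Elf3, a factor of epithelia, rose by 2.06 and 1.66, and Nfat5, which switches on genes in hypertonic surroundings and is known to act on Aqp2, rose by 0.64 and 1.06. Nr1h4, the bile acid receptor, which has been linked to Aqp2 transcription, fell (-1.37 and -1.57), and so did Lhx1 (-0.91 and -0.94). Gata3, a factor of the principal cell, had a log2 fold change of 0.36 in WT (adjusted p = 0.227) and rose by 0.63 in Acot12-/- (adjusted p = 0.0417); it was named after its values were seen.

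Other transcripts that respond to vasopressin or tonicity fell more often than they rose. Of 14 genes 13 were tested, and 7 were lower and 0 higher in WT (median -0.82) and 6 were lower and 1 higher in Acot12-/- (median -0.71). Over all genes tested, 47.5% were called in WT (23.9% lower) and 53.7% in Acot12-/- (27.2% lower). Slc12a1, the salt transporter of the thick limb, which is also on the list of thick limb markers, fell (-2.62 and -1.95). The sodium pump subunit Fxyd2 (-1.92 and -1.45) and the kinase Sgk1, which holds sodium channels at the membrane (-1.43 and -0.96), fell too. Of the sodium channel subunits, named after their values were seen, Scnn1a (-1.40 and -1.47) and Scnn1g (-0.82 and -0.81) fell. Scnn1b, the other subunit on the list, is not described here, so these values do not speak for the channel as a whole. Scnn1b and Scnn1g are also on the list of principal cell markers.

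The remaining aquaporins of the mouse were close to 0. Aqp9, a channel of liver and leukocytes, was at 0 to 0.067 FPKM in CL libraries and at 0.246 to 0.585 in UUO libraries, Mip at 0 to 0.07 and Aqp12 at 0 to 0.064, and none was tested. Avp, the hormone itself, and its receptor Avpr1b were the 2 genes of the vasopressin signal list at 0 in all 12 libraries.

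Between genotypes no member passed the test in UUO kidneys. Of 8 members tested 0 were called (0 at an unadjusted p under 0.05), where 0.0151% of all genes tested were, and 0 of the 8 had groups without overlap, where 12.0% of genes tested did. Over all genes tested only 2 were called, with Acot12 itself among them (adjusted p = 0.0459). With the compared groups fitted alone, or with pairs as a block, 0 genes were called. Finding 0 members called therefore does not show that the genotypes were alike in UUO. Log2 fold changes of Acot12-/- against WT in UUO ran from 0.04 for Aqp6 to 0.98 for Aqp2 (SE 0.67, unadjusted p = 0.17, adjusted p = 1.0). For Aqp3 it was 0.56 (SE 0.28, unadjusted p = 0.0663), and the values of all 8 were above 0, beside a median of 0.00 over all genes tested. Single libraries set part of this: without WT UUO library 1, Aqp6 was at -0.18 and Avpr2 at -0.15, and Aqp2 was at 0.43 without Acot12-/- UUO library 1 and at 1.76 without Acot12-/- UUO library 2.

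In CL kidneys 0 of 8 members were called either, where 4.48% of genes tested were, and 1 had an unadjusted p under 0.05. Aqp7 and Aqp11 had groups without overlap, 2 of the 8, where 18.3% of genes tested did not overlap. Aqp7 was 22.8 ± 1.09 FPKM in Acot12-/- CL and 14.4 ± 2.64 in WT CL (log2 fold change 0.64, SE 0.18, adjusted p = 0.0637), and Aqp11 was 43.0 ± 5.95 against 30.9 ± 4.90 (0.47, SE 0.30, adjusted p = 0.488). Aqp1 gave 0.49 (SE 0.26, adjusted p = 0.375). Without Acot12-/- CL library 2, 2 members were called higher, Aqp7 (0.65, adjusted p = 0.0309) and Aqp1 (0.74, adjusted p = 0.0488), while 22.1% of all genes tested were then called, and without Acot12-/- UUO library 2 Aqp7 was called (adjusted p = 0.0374).

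Other cell types differed between the CL groups at the same time. Of 12 endothelial markers 10 were lower in Acot12-/- CL (median -1.09), as were 4 of 9 leukocyte and 2 of 8 fibroblast markers, and summed endothelial markers were 90.3 to 135 FPKM against 243 to 376 in WT CL. Summed proximal tubule markers were 7788 to 11299 FPKM in Acot12-/- CL and 5858 to 7411 in WT CL, with 1 of 16 called higher. The part of these markers in the levels of Aqp7, Aqp11 and Aqp1 in CL kidneys was not tested.

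For the interaction of genotype and UUO, 0 of 8 members were called (0 at an unadjusted p under 0.05), where 0.106% of genes tested were. The values ran from -0.46 for Aqp7 (SE 0.25) to 1.37 for Aqp2 (SE 0.95).

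As a description over the 12 libraries, which share groups and depth, the genes with the pattern most like that of Aqp1 by Pearson's r of log2(FPKM + 1) were Ebp, an enzyme of cholesterol synthesis (0.995), Eci1 (0.992), Hsd17b10 (0.992), Clybl (0.990) and the transporter Slc6a13 (0.987). For Aqp2 they were Tysnd1 (0.937), Ttc36 (0.919), Smim5 (0.916), BC049762 (0.914) and Slc22a7 (0.906), the last of which is also on the list of proximal tubule markers. For Avpr2 they were Gm15972 (0.959), Znrf1 (0.950), Serpina1d (0.943), Eci3 (0.937) and Ccbl2 (0.936). After the group means were taken out, the 5 genes picked for Aqp2 had an r to it of 0.931 to 0.976, with 0.946 for Slc22a7. They were picked on these same 12 libraries, so this is no separate check. For Acot12-/- Slc22a7 read 278, 39.0 and 251 FPKM (CL) and 28.2, 0.884 and 43.9 (UUO), low in library 2 on both sides as Aqp2 was, and 3.27, 2.92 and 29.5 in WT UUO, high in library 3 as Aqp2 was.

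Among the members themselves, with group means taken out, the highest r over the 12 libraries were those of Aqp6 and Avpr2 (0.91), Aqp1 and Aqp2 (0.85), Aqp3 and Aqp7 (0.83), Aqp2 and Aqp11, Aqp3 and Aqp11, and Aqp7 and Aqp11 (0.81 each) and Aqp2 and Aqp6 (0.80). Aqp4 stood apart, with -0.51 to Aqp2 and -0.40 to Aqp1. These values are descriptions across libraries and carry no test.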

How the data were processed

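Total RNA from mouse kidney cortex was sequenced by the authors after directional NEBNext Ultra II library preparation on a NovaSeq instrument, and a service company trimmed, mapped and normalized the reads. The deposited values are FPKM per gene symbol; the files do not name the unit, which was derived from low values that are whole multiples of a step inverse to transcript length (79.1% to 83.4% of low values per library lay within 0.15 of a whole fragment). The submitters' processing notes list edgeR and mm10, with no role or version; the aligner is not given in the sources used here. FPKM carry no counts, so counting error enters only through the spread between libraries.

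Genes with at least 1 FPKM in at least 3 libraries were tested, leaving out 28 at 0 beside at least 10 FPKM in the same group, which left 13243. Differences on log2(FPKM + 1), which understate changes of low genes, came from limma 3.58.1 in R 4.3.3 with the 4 groups in a single model, a variance trend and Benjamini-Hochberg adjustment, called at an adjusted p under 0.05. The fit was tested on simulated data. Same-numbered CL and UUO libraries correlated after removal of group means (r 0.134 to 0.364 in WT and 0.186 to 0.322 in Acot12-/-), so a fit with pairs as a block was an alternative. The other alternatives were a pseudocount of 0.1, no filter, 2 scalings, no variance trend, the compared groups alone and leaving out each library. The members, lists and tests were chosen with earlier results of these data known. Named genes are the members, Acot12, for each list up to 3 genes with the largest fall and 3 with the largest rise called in WT without overlap, and the 5 genes most like Aqp1, Aqp2 and Avpr2; others are marked in the text. Of 23183 symbols 22148 matched GENCODE vM21. Python 3.11.15 with numpy 2.4.6 and pandas 2.3.3 was used.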

Additional observations from a re-analysis of the deposited data

How the results depend on the processing

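Under every alternative tried, Aqp1, Aqp3, Aqp4, Aqp11 and Avpr2 kept their direction with UUO in both genotypes, as did Aqp2 in WT and Aqp7 in Acot12-/-, whereas Aqp2 in Acot12-/- turned to 0.23 without Acot12-/- UUO library 2. Dropping single libraries gave 4 to 6 members called lower in WT and 4 to 6 in Acot12-/-, 0 to 0 between genotypes in UUO, 0 to 2 in CL (2 without Acot12-/- CL library 2, 1 without Acot12-/- UUO library 2) and 0 to 0 for the interaction, and the Aqp2 to Aqp1 log2 ratio moved between 0.18 and 0.67. With totals made equal between libraries the median of all genes moved to 0.62 in WT and 0.46 in Acot12-/-, and 4 members were called lower in each: Aqp1 stood at -0.75 and -1.25, Aqp2 at -1.19 (adjusted p = 0.0906) and 0.00, Avpr2 at -0.67 (adjusted p = 0.134) and -0.50, Aqp6 turned to 0.46 and 0.49 and Aqp7 to 0.30 in WT, with -0.33 (adjusted p = 0.187) in Acot12-/-. With the replicate block, pairs gave 6 members called lower in WT and 6 in Acot12-/-, where Avpr2 was added, and a p of 0.438 for the Aqp2 to Aqp1 ratio; the block changed no other call. Numbers did not pair libraries across genotypes (r -0.303 to 0.392). Over all genes, the 593 called between genotypes in CL became 5 with these groups fitted alone and 2918 without Acot12-/- CL library 2, and the 14 called for the interaction became 83 with the block. Fitting the compared groups alone could not be done for the interaction. Depth limits Aqp5 and Aqp8, with at most 25 fragments in a library.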
